A study of Homo sapiens with 8 samples.

Results

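The knockdown of peroxiredoxin II (PrxII, gene PRDX2) in HT29 cells was followed here across all measured genes. Of the 8 messenger RNA libraries of the series, 4 belong to this experiment, namely 2 from HT29 cells transfected with a control siRNA (siCon) and 2 from HT29 cells transfected with PrxII siRNA (siPrdx2), all taken 36 h after transfection. The other 4 libraries hold the same 2 groups of SW480 cells and served only for comparison. Of the 25192 gene symbols, 12961 reached 10 counts in 2 or more HT29 libraries and were tested. HT29 is a human colorectal adenocarcinoma cell line that carries truncated APC in both groups, and the control siRNA of the study is directed against firefly luciferase. Which of the study's PrxII siRNAs was sequenced is not given in the sources used here. The study describes the libraries as duplicates without saying whether these were separate transfections, so p-values measure only the spread between these libraries, which may be technical, and a change cannot be told apart from one caused by other targets of the same siRNA.

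PrxII is a cytosolic peroxidase that reduces hydrogen peroxide with electrons from thioredoxin, and it limits local peroxide near kinases, phosphatases and other enzymes that oxidation can switch off. In colorectal cells with truncated APC, beta-catenin escapes degradation and keeps its target genes active, and the question of the study was whether PrxII is needed for that state. The gene groups below cover the redox systems, the Wnt pathway, the cell cycle, innate immunity, the stress pathways that control translation, growth factor signalling, metabolism and the cytoskeleton.

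The 4 libraries held 9433463 to 10164137 expected counts, and 3 counts, the limit that a count of 0 allows, corresponded to 0.295 to 0.318 CPM, the counts scaled to a fixed library total. The duplicates were close to each other. Their counts differed by a chi-square per degree of freedom of 1.40 for the control pair and 1.70 for the PrxII siRNA pair, against 5.86 to 6.78 between libraries of different groups. Of 20 colorectal epithelial markers, 19 passed the filter on counts, among them EPCAM at 567 and 569 CPM in the controls and CDH1 at 586 and 566 CPM. Markers of other cell types were also counted. Of 14 leukocyte, 12 fibroblast and 10 endothelial markers, 5, 3 and 2 passed the filter, and 7, 6 and 4 had no count in any HT29 library, among them PTPRC, CD3E, MS4A1, COL1A2 and CDH5. The fibroblast gene COL1A1 had 26 to 52 counts per library, LUM 7 to 16 and ACTA2 7 to 18. ESAM, from the endothelial list, was at 64.6 and 67.8 CPM in the controls and 53.6 and 60.5 CPM after PrxII siRNA (-0.22 ± 0.07 SE, adjusted p = 0.0284). LYZ, the lysozyme gene that secretory intestinal cells also express, and CD68 were the most abundant of the 5 leukocyte markers that passed the filter, LYZ at 3189 and 3106 CPM in the controls and 2989.5 and 2914 CPM after PrxII siRNA.

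PRDX2 itself (GRCh37 chromosome 19, 12907634 to 12912614, minus strand) measured 148 and 154 CPM with the control siRNA, against 82.4 and 83.2 CPM with PrxII siRNA. Both PrxII siRNA libraries lay below both controls, with a log2 fold change of -0.87 ± 0.05 SE (adjusted p = 1.15e-09) in the quasi-likelihood test of edgeR, adjusted by Benjamini and Hochberg, as was every adjusted p below. A gene is said to rise, fall or change where this adjusted p was under 0.05. About 0.549 of the control level was thus left at the RNA level. Of the 6 peroxiredoxin genes, PRDX1, the other abundant cytosolic peroxidase of the family, also fell, from 318 and 325 to 292 and 290.5 CPM, a log2 fold change of -0.14 ± 0.03 SE (adjusted p = 0.00531). The mitochondrial PRDX3 (0.06 ± 0.04 SE, adjusted p = 0.324), the secretory pathway PRDX4 (-0.19 ± 0.08 SE, adjusted p = 0.115), PRDX5 (-0.14 ± 0.05 SE, adjusted p = 0.0524) and the 1-Cys enzyme PRDX6 (-0.03 ± 0.05 SE, adjusted p = 0.683) did not pass the test.

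Across the genome, 2279 genes (17.6% of those tested) passed an adjusted p of 0.05. Of these, 1006 (7.76%) were higher and 1273 (9.82%) were lower after PrxII siRNA, and in both sets the median size of the change was 0.26 on the log2 scale. The counts of every gene list below are to be read against 7.76% higher and 9.82% lower. The lists were chosen with earlier results of these data known, which can shape their shares and ranks. Changes over 0.5 on the log2 scale were found in 130 higher and 210 lower genes, and changes over 1 in 28 and 40. Most of the calls therefore were small shifts measured against very close duplicates, with a biological coefficient of variation of 0.0249 in edgeR. Under DESeq2, 871 genes passed (315 higher, 556 lower), and in a fit of all 8 libraries, which shares the wider spread of the SW480 libraries, 197 did. DESeq2 gave no adjusted p for 3769 of the tested genes, 220 of the 2279 among them, and these are left out of its counts here and below. On the log2(TPM + 1) scale, limma called 1252 genes higher and 548 lower, a share of 69.6% higher against 44.1% in the test of counts, with the median of all genes at 0.06 instead of 0.00. Log2 fold changes had a Spearman rho of 0.03 with gene length and of -0.06 with transcript GC content over the 88.1% of genes with an annotated transcript, which describes genes and not replicates.

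**Figure D1:**
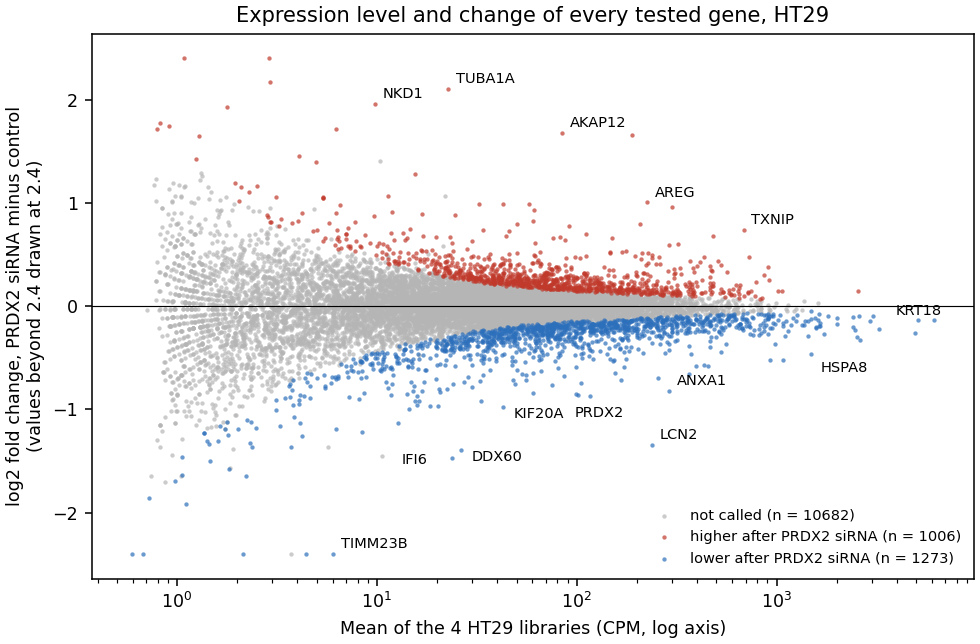
Each point is 1 of the 12961 tested genes, with the mean level of the 4 HT29 libraries (CPM, log axis) against the log2 fold change of PrxII siRNA minus control. Red points are the 1006 genes called higher, blue points the 1273 called lower and grey points those not called, and values beyond 2.4 are drawn at 2.4. Most calls at high level lie within 0.5 of 0, those of the labelled genes KRT18 and HSPA8 among them.

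Among genes of at least 5 CPM, 2 of the largest rises were in signalling regulators. AKAP12 (also called gravin), a scaffold that tethers protein kinase A and C, rose from 42.6 and 38.1 to 129.8 and 129 CPM, a log2 fold change of 1.68 ± 0.06 SE (adjusted p = 3.42e-12). NKD1, an inhibitor of Dishevelled that Wnt signalling itself induces, rose from 4.31 and 3.65 to 14.5 and 16.6 CPM, a log2 fold change of 1.96 ± 0.17 SE (adjusted p = 2.01e-07). The PrxII siRNA libraries were thus more than 3 times the controls for both genes, and DESeq2 gave no adjusted p for NKD1. TUBA1A, an alpha-tubulin, was estimated at 8.72 and 8.45 CPM in the controls and 37.6 and 36.4 CPM after PrxII siRNA, a log2 fold change of 2.11 ± 0.10 SE (adjusted p = 2.77e-10). Its reads are shared in part with the near-identical TUBA1B and TUBA1C, which were far more abundant and lower after PrxII siRNA (2147 and 2125 against 1914 and 1876 CPM for TUBA1B), so the estimate for TUBA1A is uncertain. NR0B2, the bile acid induced corepressor also known as SHP, rose from 8.93 and 9.18 to 21.9 and 22.2 CPM (1.28 ± 0.12 SE, adjusted p = 6.44e-07). ALDH1A3, which makes retinoic acid, rose from 22.5 and 21.1 to 43.1 and 43.4 CPM (0.99 ± 0.08 SE, adjusted p = 1.07e-07). The stress cytokine GDF15 was far more abundant and rose from 201 and 207 to 381 and 413 CPM (0.96 ± 0.04 SE, adjusted p = 2.13e-11). The low-level genes PDZRN3, FNTB, RAMP1 and DNAJC12 rose by 0.97 to 1.06 on the log2 scale from levels of 2.87 to 4.51 CPM in the controls, and the counts of FNTB are not whole.

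Of the 15 largest falls among genes of at least 5 CPM, 6 were in interferon-stimulated genes, which are described below, and others in secreted proteins. LCN2, the lipocalin that starves bacteria of iron, fell from 343 and 343 to 130.000 and 139.7 CPM, a log2 fold change of -1.35 ± 0.04 SE (adjusted p = 8.75e-13), so that 0.393 of the control level remained. WNT11, a ligand of beta-catenin independent Wnt signalling, fell from 15.8 and 19.2 to 6.73 and 9.25 CPM (-1.14 ± 0.16 SE, adjusted p = 6.51e-05). CLIC3, a chloride channel family protein with a role in integrin recycling, fell from 12.3 and 11.3 to 5.56 and 4.52 CPM (-1.22 ± 0.17 SE, adjusted p = 5.86e-05). The pair of WNT11 values in each group spread more than those of LCN2. For the largest rises and falls, groups that do not overlap were a condition of the choice. UCA1, a long noncoding RNA, fell from 21.03 and 19.6 to 10.5 and 10.9 CPM (-0.92 ± 0.12 SE), and GABRE, a GABA receptor subunit, fell from 39.8 and 47.3 to 21.9 and 24.1 CPM (-0.92 ± 0.09 SE).

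**Figure D2:**
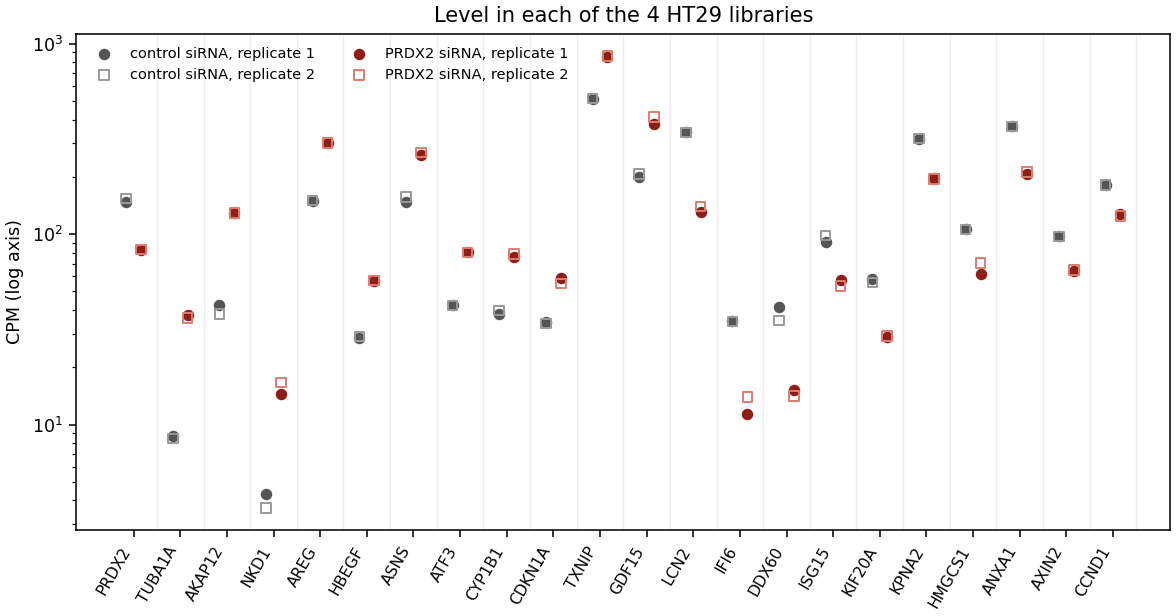
CPM (log axis) of 22 genes in each of the 4 HT29 libraries, with grey symbols for the control siRNA and red symbols for PrxII siRNA, filled circles for replicate 1 and open squares for replicate 2. The genes were chosen among those that changed, which sets the gap between the groups. LCN2 is near 343 CPM in the controls and at 130.000 and 139.7 CPM after PrxII siRNA.

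Some of the largest estimates belong to genes that share reads with a near-identical copy. TIMM23B was estimated at 11.9 and 11.8 CPM in the controls and 0.293 and 0.105 CPM after PrxII siRNA, while the sum of TIMM23 and TIMM23B was 722 and 733 counts in the controls against 810.0 and 811 counts, a log2 ratio of 0.15. RASA4B and MSTO2P also carry split reads, and these 3 genes are not read as changes of a single gene.

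Among the lists with at least 10 tested members, all chosen with earlier results of these data known, interferon-stimulated genes had the lowest median. These genes encode antiviral enzymes, helicases and ubiquitin-like modifiers and are switched on by interferon through a promoter element called ISRE, in which GAAA recurs after any 2 bases. Of the 49 tested members, 31 fell and none rose, against 9.82% lower among all tested genes, and the median log2 fold change was -0.32 against 0.00 for all genes. Their summed level was 3672 and 3681 CPM in the controls and 2898 and 2951 CPM after PrxII siRNA. With DESeq2, which gave no adjusted p for 5 of the 31, 21 members fell, and in the fit of all 8 libraries 12 did. Leaving out 1 library at a time gave 25 to 28 members that fell, and without PrxII siRNA replicate 1 a single member rose.

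Promoters of 39 members were in the RefSeq table used (GRCh38.p14, 250 bases before to 50 after the start), and 25 of them (64.1%) held the ISRE letters on either strand, against 3.65% of all 27305 promoters. Of the 24 promoters of members that fell, 18 (75.0%) held it, and of the 15 others, 7. The windows below, 60 bases each and written 5′ to 3′ on the strand of the gene, show the match in capitals, which in IFIT1 is read on the other strand, for 5 of the members that fell, since these letters are what many of the promoters share. A match describes the letters and not the binding of a factor.
IFI6, chr1:27672273-27672332, minus strand: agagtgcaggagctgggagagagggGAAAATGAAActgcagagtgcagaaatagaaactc
DDX60, chr4:168318806-168318865, minus strand: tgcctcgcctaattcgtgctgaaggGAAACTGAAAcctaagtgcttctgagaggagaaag
ISG15, chr1:1013365-1013424, plus strand: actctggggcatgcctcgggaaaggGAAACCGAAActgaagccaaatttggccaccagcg
MX1, chr21:41420544-41420603, plus strand: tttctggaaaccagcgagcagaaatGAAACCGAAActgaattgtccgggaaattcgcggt
IFIT1, chr10:89392495-89392554, plus strand: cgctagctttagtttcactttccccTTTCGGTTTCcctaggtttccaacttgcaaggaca

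Among the members, IFI6, a mitochondrial and endoplasmic reticulum protein that protects against viral replication, fell from 34.99 and 34.9 to 11.3 and 13.99 CPM, a log2 fold change of -1.47 ± 0.11 SE (adjusted p = 2.58e-08). DDX60, a helicase that promotes RNA sensing, fell from 41.5 and 35.3 to 15.1 and 14.1 CPM, a log2 fold change of -1.39 ± 0.10 SE (adjusted p = 3.83e-08). Both genes thus kept less than 0.4 of the control level. The oligoadenylate synthetase OAS2, which makes the activator of RNase L, fell from 19.1 and 22.6 to 10.5 and 10.9 CPM (-0.96 ± 0.13 SE), and its relative OASL from 25.04 and 23.8 to 11.1 and 13.99 CPM (-0.96 ± 0.12 SE). IFIT1, which binds foreign RNA caps, fell from 25.2 and 28.1 to 13.8 and 13.5 CPM (-0.96 ± 0.11 SE), and IFI44 from 20.3 and 21.9 to 9.56 and 12.8 CPM (-0.92 ± 0.13 SE). HERC5, the ligase that attaches ISG15, fell from 3.80 and 2.92 to 1.17 and 0.946 CPM (-1.65 ± 0.33 SE, adjusted p = 0.00205), at the lowest level of the members named here.

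The following members were chosen after their values were seen, to show the ubiquitin-like modifier and the regulators. ISG15 fell from 90.7 and 98.4 to 57.5 and 53.4 CPM (-0.77 ± 0.06 SE, adjusted p = 8.37e-08) and MX1, an antiviral GTPase, from 26.7 and 26.5 to 14.4 and 15.5 CPM (-0.83 ± 0.10 SE). The regulators STAT2 (-0.14 ± 0.07 SE, adjusted p = 0.193) and IRF9 (-0.22 ± 0.08 SE, adjusted p = 0.0877) did not pass the test.

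Other lists of innate immunity are given by their counts. Of 20 tested RNA and DNA sensors, 2 fell and none rose (median -0.06), a share near the 9.82% lower among all genes, and 1 fell without PrxII siRNA replicate 2. These were EIF2AK2, the RNA-activated kinase PKR (-0.24 ± 0.06 SE), and the RNA editing enzyme ADAR (-0.14 ± 0.03 SE). MHC class I antigen presentation had 9 of 16 members lower and none higher (median -0.12), led by the peptide loading chaperone TAPBP, which fell from 157 and 143 to 111 and 111 CPM (-0.44 ± 0.05 SE), and the immunoproteasome subunit PSMB10 (-0.42 ± 0.07 SE). In the list of NF-kB targets and epithelial defence, 3 of 31 members rose and 3 fell (median -0.09), shares near the 7.76% and 9.82% of all genes. The rises numbered 1 without control replicate 1 or PrxII siRNA replicate 2, the falls 1 without PrxII siRNA replicate 1, and DESeq2, with no adjusted p for 2 of the 6, gave no rise and 1 fall. The adhesion molecule ICAM1 rose (0.52 ± 0.13 SE), while LCN2 and the protease inhibitors SLPI (-0.69 ± 0.19 SE) and PI3 (-1.37 ± 0.35 SE) fell, the last of these at under 5 CPM.

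Genes of the cell cycle moved in 2 directions. Those of DNA replication and of the transition from G1 to S phase were higher, and those of G2 phase and mitosis were lower. Of the 78 tested G2/M genes, 48 fell and 1 rose (median -0.22), and their summed level was 10764 and 10682 CPM in the controls and 9152 and 9068 CPM after PrxII siRNA. Of the 53 tested replication and G1/S genes, 29 rose and none fell (median 0.16), against 7.76% higher among all tested genes, and their summed level was 5222 and 5225 CPM in the controls and 5733 and 5724 CPM after PrxII siRNA. These shifts were small per gene, and the count of the second list moved with the test. It was 11 with DESeq2, 19 without control replicate 1, 16 without PrxII siRNA replicate 1 and 1 in the fit of all 8 libraries, while the G2/M list had 36 lower members with DESeq2, 30 on the log2(TPM + 1) scale and 13 in the fit of all 8 libraries. In bulk samples, fewer cells in a phase and less RNA per cell cannot be told apart.

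KIF20A, a kinesin of the central spindle, showed the largest G2/M change, from 58.3 and 55.7 to 28.9 and 29.1 CPM, a log2 fold change of -0.98 ± 0.07 SE (adjusted p = 2.34e-08). KPNA2, an importin that carries spindle factors, fell from 316 and 318 to 197 and 195 CPM, a log2 fold change of -0.69 ± 0.03 SE (adjusted p = 2.88e-10). The spindle proteins ASPM (191 and 189 to 119 and 123 CPM, -0.65 ± 0.04 SE) and TROAP (41.2 and 41.7 to 25.4 and 27.03 CPM, -0.66 ± 0.08 SE) also fell. CDCA5, which holds sister chromatids together and is made in S phase, was the member that rose, from 143 and 141 to 164 and 163 CPM (0.20 ± 0.04 SE, adjusted p = 0.00285). Of genes chosen after their values were seen, the mitotic kinase PLK1 fell (-0.40 ± 0.06 SE, adjusted p = 0.000163) and so did the cyclin CCNB1 (-0.39 ± 0.04 SE, adjusted p = 5.65e-06), whereas MKI67, the proliferation marker Ki-67, was at 696 and 675 CPM in the controls and 675 and 663 CPM after PrxII siRNA (-0.04 ± 0.02 SE, adjusted p = 0.358).

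Promoters of G2/M genes share the cell cycle homology region (CHR, letters TTTGAA) and CCAAT boxes, through which the DREAM and MuvB complexes and NF-Y are known to act. Of 65 G2/M promoters in the table, 44 (67.7%) held TTTGAA on either strand against 15.4% of all promoters, and 48 (73.8%) held CCAAT against 35.7%. The shares in the 40 promoters of members that changed were 67.5% and 82.5%. Of the 25 others, 17 held TTTGAA and 15 held CCAAT, so CHR was about as frequent in members that did not change. For the windows below the capitals mark CHR in KPNA2 and ASPM and CCAAT in KIF20A, all read on the other strand, in 3 of the members with large falls.
KPNA2, chr17:68035609-68035668, plus strand: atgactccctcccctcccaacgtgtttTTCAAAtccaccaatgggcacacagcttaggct
ASPM, chr1:197146750-197146809, minus strand: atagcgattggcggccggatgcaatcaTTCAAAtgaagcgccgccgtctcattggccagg
KIF20A, chr5:138179018-138179077, plus strand: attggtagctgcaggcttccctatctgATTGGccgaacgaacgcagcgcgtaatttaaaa

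Among replication genes, DTL, the adaptor of the ubiquitin ligase that destroys licensing factors in S phase, rose from 63.1 and 61.7 to 82.8 and 82.9 CPM, a log2 fold change of 0.41 ± 0.05 SE (adjusted p = 3.79e-05). ORC6, a subunit of the origin recognition complex, rose from 39.4 and 40.6 to 53.6 and 52.1 CPM (0.40 ± 0.07 SE), and PRIM1, the primase that starts DNA strands, from 36.2 and 34.6 to 48.1 and 45.5 CPM (0.40 ± 0.07 SE). The transcription factor E2F2 rose from 12.004 and 13.4 to 18.4 and 17.1 CPM (0.49 ± 0.12 SE, adjusted p = 0.00896). All 4 genes were at 1.32 to 1.40 times the control level. Of 44 promoters of this list, 10 (22.7%) held the E2F letters TTTGGCGC against 0.659% of all promoters, and 12 (27.3%) held TTTCCCGC against 1.66%. The first form was in 5 of 26 promoters of members that rose and in 5 of 18 others, and the second in 6 of 26 and 6 of 18. Neither form was more frequent in members that rose than in the others. The capitals below mark the first form in members that rose.
DTL, chr1:212035714-212035773, plus strand: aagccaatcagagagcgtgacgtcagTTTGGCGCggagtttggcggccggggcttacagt
E2F2, chr1:23531242-23531301, minus strand: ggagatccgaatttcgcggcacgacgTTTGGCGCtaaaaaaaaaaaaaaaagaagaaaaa

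Of 15 tested D cyclins, cyclin-dependent kinases and their inhibitors, 3 rose and 1 fell (median 0.06). CDKN1A, the inhibitor p21, rose from 34.8 and 34.02 to 58.8 and 55.1 CPM, a log2 fold change of 0.73 ± 0.07 SE (adjusted p = 6.55e-07), and CDKN2B, the inhibitor p15, rose as well (0.54 ± 0.09 SE, adjusted p = 0.000526), with the kinase CDK6 (0.16 ± 0.04 SE) as the third, and cyclin D1 (CCND1), described below, fell. Of 30 tested p53 targets, 9 rose and 3 fell (median 0.17). Those that rose included GDF15, the kinase PLK3 (0.67 ± 0.10 SE) and SESN2 (61.97 and 65.1 to 97.6 and 105 CPM, 0.67 ± 0.06 SE), which other stress pathways also induce. Those that fell were MDM2, the ubiquitin ligase of p53 (75.002 and 72.2 to 62.2 and 59.3 CPM, -0.28 ± 0.06 SE), CCNG1 (-0.40 ± 0.04 SE) and PHLDA3 (-0.43 ± 0.12 SE). With DESeq2, which gave no adjusted p for 1 of the 12 called p53 targets, 7 rose and 1 fell. In the fit of all 8 libraries, 6 p53 targets rose and none fell. HT29 cells carry a mutant p53. In the list of DNA repair and damage checkpoints, 9 of 48 members rose and 1 fell (median 0.06), while no member fell without control replicate 2 or PrxII siRNA replicate 2 and 2 did without control replicate 1. Its rises numbered 5 with DESeq2 and 1 in the fit of all 8 libraries. The list was led by the nuclease EXO1 (0.46 ± 0.08 SE), the helicase BLM (0.43 ± 0.06 SE) and the glycosylase MUTYH (0.38 ± 0.11 SE), with PARP1 at 196 and 189 CPM in the controls and 239 and 243 CPM after PrxII siRNA (0.32 ± 0.04 SE).

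The targets of ATF4 and CHOP had the highest median of the 63 lists, which were chosen with earlier results of these data known. ATF4 and CHOP are transcription factors of the integrated stress response, which is entered when the initiation factor eIF2 is phosphorylated and which raises amino acid import and synthesis. Of 34 tested members, 26 rose and 1 fell (median 0.39), and their summed level was 6110 and 6187 CPM in the controls and 7969 and 8024 CPM after PrxII siRNA. The count was 23 with DESeq2, without an adjusted p for 1 called member, and 15 in the fit of all 8 libraries, and leaving out 1 library at a time gave 23 to 27. ATF3, a transcription factor of the response, rose from 42.4 and 42.3 to 81.04 and 79.9 CPM, a log2 fold change of 0.93 ± 0.06 SE (adjusted p = 5.61e-09). ASNS, the asparagine synthetase, rose from 147 and 157 to 260.5 and 268 CPM, a log2 fold change of 0.80 ± 0.04 SE (adjusted p = 4.69e-10). CHAC1, which degrades glutathione, rose from 81.8 and 87.9 to 133 and 141 CPM, a log2 fold change of 0.69 ± 0.05 SE (adjusted p = 5.36e-08). These 3 genes and SESN2 were between 1.59 and 1.90 times the control level. ATF5 was the member that fell, at 26.5 and 26.5 CPM in the controls and 20.5 and 20.5 CPM after PrxII siRNA (-0.37 ± 0.09 SE, adjusted p = 0.0094), and its fall did not pass in DESeq2.

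The regulators, chosen after their values were seen, also rose. ATF4 rose from 434 and 424 to 494 and 509 CPM (0.23 ± 0.03 SE, adjusted p = 1.92e-05) and DDIT3, the gene of CHOP, from 55.4 and 52.1 to 77.9 and 76.5 CPM (0.52 ± 0.06 SE, adjusted p = 5.61e-06). Of 28 promoters of the list, 5 (17.9%) held the composite element TGATGNAA on either strand against 3.67% of all promoters, all 5 in members that changed, as were 23 of the 28. The capitals below mark it in ASNS and, read on the other strand, in CHAC1, shown because these 2 genes were among the largest rises of the list.
ASNS, chr7:97872443-97872502, minus strand: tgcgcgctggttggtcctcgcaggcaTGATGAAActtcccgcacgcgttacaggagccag
CHAC1, chr15:40953236-40953295, plus strand: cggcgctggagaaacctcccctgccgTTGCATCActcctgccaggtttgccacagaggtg

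Genes that supply amino acids and charge tRNAs also rose. The lists share members, since ASNS is in both the ATF4 and CHOP list and the serine, glycine and one-carbon list, so these counts are not separate from those above. Of 20 tested cytosolic aminoacyl-tRNA synthetases, 11 rose and none fell (median 0.18). CARS, the cysteine enzyme, rose from 136 and 142 to 201 and 198 CPM, a log2 fold change of 0.53 ± 0.04 SE (adjusted p = 1.15e-07), and MARS, SARS and GARS, the methionine, serine and glycine enzymes, rose by 0.41, 0.41 and 0.39 on the log2 scale. In serine, glycine and one-carbon metabolism, 11 of 27 tested members rose and 1 fell (median 0.12), and 6 rose with DESeq2 or without PrxII siRNA replicate 1. The serine synthesis enzymes PSPH (81.98 and 82.2 to 115 and 113 CPM, 0.48 ± 0.05 SE) and PSAT1 (175 and 179.99 to 245 and 239.9 CPM, 0.45 ± 0.04 SE) and the mitochondrial folate enzyme MTHFD2 (0.37 ± 0.03 SE) rose, and MAT2A, which makes S-adenosylmethionine, fell (-0.14 ± 0.03 SE). EIF4EBP1, the translation repressor 4E-BP1, rose as well (0.66 ± 0.12 SE). In the unfolded protein response of the endoplasmic reticulum, a neighbouring pathway, 4 of 32 members rose and 10 fell (median -0.08). The falls numbered 6 without PrxII siRNA replicate 1, 4 without PrxII siRNA replicate 2 and 4 with DESeq2. The sensor ERN1 (0.49 ± 0.09 SE), the degradation factor HERPUD1 (0.46 ± 0.05 SE) and XBP1 (0.28 ± 0.03 SE) rose, whereas the chaperone HSP90B1 (-0.23 ± 0.02 SE) and the disulfide isomerase P4HB (-0.17 ± 0.02 SE) fell.

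Redox genes other than the peroxiredoxins moved in both directions. In the thioredoxin and glutathione systems, 7 of 28 tested members rose and 1 fell (median 0.07). TXNIP, the protein that binds and inhibits thioredoxin, was the most abundant of the leading ones and rose from 512 and 515 to 848 and 861 CPM, a log2 fold change of 0.73 ± 0.02 SE (adjusted p = 8.75e-13). The peroxidase GPX8 (0.50 ± 0.15 SE) and the glutathione synthetase GSS (0.38 ± 0.05 SE) also rose, and GPX2, an intestinal glutathione peroxidase, fell (-0.24 ± 0.03 SE). Targets of NRF2, the transcription factor that oxidants release from KEAP1, had 7 of 27 tested members higher and 6 lower (median -0.05). The falls numbered 1 without PrxII siRNA replicate 1, 3 without control replicate 2, 2 with DESeq2, which gave OSGIN1 no adjusted p, and 1 on the log2(TPM + 1) scale, where the median was 0.01. The cystine importer SLC7A11, which is also an ATF4 target, rose from 205 and 194 to 278 and 272 CPM (0.46 ± 0.04 SE), and the thioredoxin reductase TXNRD1 from 433 and 434 to 495 and 492 CPM (0.19 ± 0.03 SE). NFE2L2, the gene of NRF2 (0.29 ± 0.04 SE), and GCLC, which starts glutathione synthesis (0.22 ± 0.06 SE), rose, whereas OSGIN1 (-0.55 ± 0.17 SE) and the ferritin heavy chain FTH1 (-0.21 ± 0.01 SE) fell. HMOX1, a classical NRF2 target chosen after its values were seen, was at 10.8 and 10.9 CPM in the controls and 13.1 and 10.7 CPM after PrxII siRNA (0.14 ± 0.14 SE, adjusted p = 0.558). The antioxidant response element TGACNNNGC was found in 4 of 22 promoters of the list (18.2%) against 13.6% of all promoters.

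In the list of ERBB receptors and ligands, 4 of 13 tested members rose and 3 fell (median 0.01). The ligand AREG rose from 150.2 and 150.2 to 301 and 301 CPM, a log2 fold change of 1.00 ± 0.04 SE (adjusted p = 8.23e-12), HBEGF from 28.4 and 29.01 to 56.95 and 57.1 CPM, a log2 fold change of 0.99 ± 0.07 SE (adjusted p = 1.76e-08), and EREG from 229 and 233 to 352 and 344 CPM, a log2 fold change of 0.59 ± 0.03 SE (adjusted p = 1.40e-09). The level of AREG and HBEGF was thus about 2 times that of the controls in both libraries. The other ligands tested, chosen after their values were seen, did not pass, with EGF at -0.76 ± 0.44 SE (adjusted p = 0.263), TGFA at -0.08 ± 0.05 SE (adjusted p = 0.327) and BTC at 0.01 ± 0.35 SE (adjusted p = 0.99). ERRFI1, the feedback inhibitor of the receptor, rose from 372 and 364 to 586 and 593 CPM, a log2 fold change of 0.68 ± 0.03 SE (adjusted p = 1.13e-11). The receptor ERBB3 (427 and 425 to 356 and 360.2 CPM, -0.25 ± 0.03 SE), the receptor inhibitor LRIG1 (-0.33 ± 0.06 SE) and the adaptor GRB7 (-0.21 ± 0.06 SE) fell.

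Immediate early genes, which growth factors and stress induce within minutes, had 12 of 28 tested members higher and none lower (median 0.19). ATF3, described above with the ATF4 and CHOP targets, is also in this list. JUN rose from 173 and 176 to 251 and 248 CPM, a log2 fold change of 0.52 ± 0.04 SE (adjusted p = 3.58e-08), and BTG1, an antiproliferative gene, from 60.3 and 57.4 to 90.4 and 95.2 CPM (0.66 ± 0.06 SE). FOSB rose from 5.85 and 5.43 to 9.07 and 10.8 CPM (0.81 ± 0.17 SE, adjusted p = 0.00296). Among output genes of the MAP kinase pathway, 7 of 26 rose and 3 fell, or 1 without PrxII siRNA replicate 1 (median 0.03), with the phosphatases DUSP1 (0.74 ± 0.12 SE) and DUSP5 (0.48 ± 0.08 SE) and the AP-1 subunit FOSL1 (0.41 ± 0.08 SE) higher and DUSP7 (-0.38 ± 0.11 SE), ETV5 (-0.17 ± 0.06 SE) and CCND1 lower.

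The aryl hydrocarbon receptor is a ligand-activated transcription factor whose classical targets are cytochrome P450 enzymes. Of 12 tested members of its axis, 7 rose and none fell (median 0.20). NFE2L2, among those that rose, is counted with the NRF2 targets as well. AHRR (-0.12) and UGT1A6 (-0.12) were below 0 and did not pass the test. CYP1B1 rose from 37.9 and 39.6 to 75.8 and 78.6 CPM, a log2 fold change of 0.99 ± 0.06 SE (adjusted p = 4.62e-09), and TIPARP, the ADP-ribosyltransferase that feeds back on the receptor, from 117 and 116 to 189 and 177 CPM, a log2 fold change of 0.66 ± 0.05 SE (adjusted p = 2.03e-08). CYP1A1 had 2 and 2 counts in the controls and 26 and 13 counts after PrxII siRNA, a ratio of 9.72 with a 95% exact interval of 3.51 to 37.4 that covers counting error only. ALDH3A1 rose from 9.54 and 9.50 to 13.5 and 16.2 CPM (0.64 ± 0.14 SE, adjusted p = 0.0042). The xenobiotic response element TNGCGTG was present in 4 of 10 promoters of the list (40.0%) and in 5.51% of all promoters. The matches were in NQO1 and NFE2L2, 2 of 5 promoters of members that rose, and in AHRR and UGT1A6, 2 of 5 others. None was in a rise named in this paragraph.

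Ribosomal protein genes shifted by a small amount and nearly as a block. Of 79 tested genes of the cytosolic ribosome, 72 fell and none rose (median -0.18), and 76 had both PrxII siRNA libraries below both controls against 28.7% of all tested genes (28.3% had both above). Their summed level was 50834 and 50883 CPM in the controls and 44446 and 45313 CPM after PrxII siRNA. RPL23A fell from 349 and 347 to 277 and 272 CPM (-0.34 ± 0.03 SE). Short transcripts outside the list also fell more often than they rose, since the 794 tested genes under 1000 nt outside this list had a median of -0.06 with 12.3% lower and 2.64% higher, and the median length of the list was 713 nt. The part of transcript length in the result was not tested. On the log2(TPM + 1) scale 44 of the 79 fell, and in the fit of all 8 libraries 3 did. The 76 mitochondrial ribosomal protein genes had 1 member higher and 1 lower (median 0.01), and from none to 2 in either direction with 1 library left out.

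Of 46 translation factors, 7 rose and 14 fell (median -0.08), and the falls numbered 9 with DESeq2 or without PrxII siRNA replicate 1, 8 without PrxII siRNA replicate 2 and 4 on the log2(TPM + 1) scale. The poly(A) binding proteins PABPC4 (206 and 209 to 124 and 129 CPM, -0.71 ± 0.04 SE) and PABPC1 (-0.27 ± 0.02 SE) and the initiation factor subunit EIF3G (-0.34 ± 0.06 SE) fell, and EIF5 (0.24 ± 0.03 SE), EIF1 (0.23 ± 0.03 SE) and EIF2B2 (0.27 ± 0.08 SE) rose. Ribosome biogenesis had 7 of 40 members higher and 3 lower (median 0.05), with RRP9 (0.39 ± 0.07 SE) first among them, but without either PrxII siRNA library 2 rose and none fell, and without control replicate 2, 3 rose and 1 fell.

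Genes of cholesterol synthesis were lower. Of 29 tested genes of the pathway and its control, 14 fell and none rose (median -0.21), and 9 fell with DESeq2. HMGCS1, which makes the precursor of mevalonate, fell from 107 and 106 to 62.1 and 70.6 CPM, a log2 fold change of -0.68 ± 0.06 SE (adjusted p = 2.07e-07). INSIG1, the sterol sensor, fell from 54.3 and 58.2 to 37.8 and 40.2 CPM (-0.53 ± 0.07 SE), IDI1 from 75.6 and 76.1 to 57.1 and 55.5 CPM (-0.43 ± 0.06 SE) and MYLIP, a ubiquitin ligase that sterols induce through LXR, from 22.8 and 22.95 to 14.6 and 18.3 CPM (-0.48 ± 0.11 SE). In fatty acid synthesis and lipid droplets, 9 of 28 fell and 2 rose (median -0.09), or 1 with any 1 library left out, and on the log2(TPM + 1) scale 4 fell. The desaturase SCD fell from 1125 and 1101 to 858 and 863 CPM (-0.37 ± 0.02 SE) and the acyl-CoA synthetase ACSL1 from 64.02 and 59.9 to 38.5 and 34.8 CPM (-0.75 ± 0.07 SE), whereas the lipid droplet coat PLIN2 rose (0.38 ± 0.10 SE). The sterol element TCACNCCAC was found in 1 of 21 promoters of the cholesterol list (4.76%) against 1.15% of all promoters, and in none of the 11 promoters of members that fell.

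In glycolysis and the hypoxia response, 12 of 37 members fell and 2 rose (median -0.05), and 1 rose without control replicate 2 or PrxII siRNA replicate 1. On the log2(TPM + 1) scale, 7 fell and 1 rose, with a median of 0.01. GAPDH (2764 and 2810.2 to 2263 and 2280.5 CPM, -0.30 ± 0.01 SE), ALDOC (-0.37 ± 0.10 SE) and PKM (-0.21 ± 0.02 SE) fell, and VEGFA, the vascular growth factor, rose from 162 and 163 to 239 and 215 CPM (0.48 ± 0.05 SE). The citric acid cycle had 3 of 27 members lower, respiratory complex I 5 of 38 and complexes III to V 8 of 35, with none higher in any of the 3 lists and medians of -0.02, -0.03 and -0.06. The share of the citric acid cycle is near the 9.82% lower among all genes. The median lengths of complex I and of complexes III to V were 771 and 885 nt. Tested genes under 1000 nt outside the cytosolic ribosomal protein list had 12.3% lower and 2.64% higher, near the 13.2% lower of complex I. The part of transcript length was not tested. Without PrxII siRNA replicate 1, 5 members of complexes III to V fell, and without either PrxII siRNA library 2 members of complex I did. On the log2(TPM + 1) scale, the cycle had 1 member higher and 1 lower, complex I 3 and 3, and complexes III to V 1 and 3, and the medians of the first 2 lists were above 0. In iron handling and ferroptosis, 8 of 22 fell and 1 rose (median -0.11), or 5 without PrxII siRNA replicate 1 and 2 on the log2(TPM + 1) scale, and 2 rose without PrxII siRNA replicate 2 or either control. This list holds the iron exporter SLC40A1 at 166 and 162 CPM in the controls and 114 and 124 CPM after PrxII siRNA (-0.47 ± 0.05 SE).

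The genes of the Wnt pathway did not move as 1 group. Of 15 tested feedback and stem targets, 1 rose and 2 fell (median -0.02). These are 6.67% and 13.3% of the list, near the 7.76% higher and 9.82% lower among all tested genes. AXIN2 fell from 97.8 and 97.1 to 63.9 and 64.9 CPM, a log2 fold change of -0.60 ± 0.05 SE (adjusted p = 2.45e-07), and DKK1, a secreted Wnt antagonist, from 69.2 and 78.7 to 46.3 and 47.95 CPM, a log2 fold change of -0.65 ± 0.07 SE (adjusted p = 2.78e-06), while NKD1 rose. All 3 are known as feedback inhibitors that the pathway induces, and they moved in opposite directions. RNF43, another feedback target, chosen after its values were seen, was at 284 and 273 CPM in the controls and 274 and 269.5 CPM after PrxII siRNA (adjusted p = 0.569). Of 21 other beta-catenin targets, 11 fell and 4 rose (median -0.13). With DESeq2, 10 fell and 2 rose, and in the fit of all 8 libraries 3 fell and 2 rose. On the log2(TPM + 1) scale 9 fell and 4 rose, with a median of -0.06. This list holds genes that the study named on these samples, so its direction is not independent evidence. CCND1, cyclin D1, fell from 180.4 and 181 to 127 and 124 CPM (-0.52 ± 0.04 SE) and EDN1 from 43.9 and 38.1 to 31.6 and 29.02 CPM (-0.43 ± 0.08 SE), and JUN, VEGFA, FOSL1 and CLDN1 were the members that rose. MYC, chosen after its values were seen, had 237 and 249 CPM in the controls and 242 and 243 CPM after PrxII siRNA (adjusted p = 0.997).

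Of 23 tested components of the beta-catenin destruction complex and tankyrases, 3 rose and 1 fell (median 0.04). AXIN1 rose from 102 and 101 to 114 and 123 CPM (0.22 ± 0.05 SE, adjusted p = 0.00608), APC from 72.7 and 75.96 to 82.6 and 84.6 CPM (0.17 ± 0.05 SE) and the kinase GSK3A from 104 and 104 to 112 and 119 CPM (0.15 ± 0.05 SE), and the ubiquitin ligase subunit FBXW11 fell (-0.19 ± 0.05 SE). None of these 4 calls passed in DESeq2. The rises numbered 1 without control replicate 1 and none without PrxII siRNA replicate 2, and the fall was lost without control replicate 1 or either PrxII siRNA library. CTNNB1, the gene of beta-catenin, was at 242 and 248 CPM in the controls and 244 and 251 CPM after PrxII siRNA (adjusted p = 0.825), TNKS at 32.8 and 35.1 CPM against 32.96 and 36.3 CPM (adjusted p = 0.868) and TNKS2 at 140.5 and 139 CPM against 144 and 141 CPM (adjusted p = 0.723).

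Calcium-binding proteins and keratins of the epithelium fell more often than they rose. In the list of S100 proteins and annexins, 9 of 14 tested members fell and 1 rose, or none without control replicate 1 or PrxII siRNA replicate 1 (median -0.14). ANXA1, an annexin that restrains inflammation, fell from 371 and 368 to 207 and 212 CPM, a log2 fold change of -0.82 ± 0.03 SE (adjusted p = 1.86e-11), and S100A10, the partner of annexin A2, from 542 and 542 to 362 and 364 CPM, a log2 fold change of -0.58 ± 0.03 SE (adjusted p = 9.54e-11). S100P rose by a small amount, from 267 and 278 to 301 and 296 CPM (0.13 ± 0.03 SE). The median length of this list was 850.5 nt, and 12.3% of tested genes under 1000 nt outside the cytosolic ribosomal protein list fell. Of 11 keratins, 6 fell and 1 rose (median -0.15). KRT18, among the most abundant genes of these cells, fell from 5372 and 5369.5 to 4520.3 and 4473 CPM (-0.26 ± 0.01 SE), while KRT20, a marker of mature colonocytes, rose from 459 and 449 to 603 and 589 CPM (0.39 ± 0.03 SE). The intestinal transcription factor CDX2 also rose, from 9.23 and 8.87 to 14.04 and 13.04 CPM (0.58 ± 0.14 SE), but of 26 enterocyte and differentiation genes 3 rose and 4 fell, with the secretory lineage factor SPDEF lower (-0.55 ± 0.08 SE). The 2 counts are 11.5% and 15.4% of that list, against 7.76% and 9.82% of all tested genes.

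Genes of the cytoskeleton and matrix fell more often than they rose. Of 43 genes of actin and its regulators, 14 fell and 4 rose (median -0.08). The crosslinker FLNA fell from 1258 and 1299 to 869 and 906 CPM (-0.53 ± 0.02 SE) and ACTB, beta-actin, from 2911 and 2906 to 2303 and 2329 CPM (-0.33 ± 0.01 SE), while the myosins MYH9 (0.14 ± 0.02 SE) and MYH14 (0.18 ± 0.03 SE) rose. Of 19 tubulins, 5 fell and 3 rose, with TUBB4B at 595 and 616 CPM in the controls and 441 and 448 CPM after PrxII siRNA (-0.45 ± 0.03 SE) and TUBB3 at 19.8 and 17.9 CPM against 27.9 and 29.8 CPM (0.61 ± 0.10 SE). ACTB and GAPDH, which are common reference genes, were both below their control levels. Of 22 matrix proteases and inhibitors, 11 fell and 1 rose (median -0.11). The metalloproteinase inhibitor TIMP2 fell from 128 and 129 to 69.05 and 72.98 CPM, a log2 fold change of -0.85 ± 0.05 SE (adjusted p = 2.36e-09), the serpins SERPINB5 (-0.62 ± 0.08 SE) and SERPINA1 (635 and 623 to 479 and 494 CPM, -0.37 ± 0.03 SE) also fell, and the membrane metalloproteinase MMP14 rose (0.46 ± 0.11 SE).

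Of 29 heat-shock chaperones, 9 fell and 3 rose (median -0.02), or 5 fell with DESeq2. On the log2(TPM + 1) scale, 5 fell and 4 rose, with a median of 0.04. HSPA8, the constitutive cytosolic chaperone, fell from 1759.5 and 1709 to 1263 and 1243 CPM, a log2 fold change of -0.47 ± 0.02 SE (adjusted p = 1.13e-11), and DNAJA1, its cochaperone, from 194 and 182 to 143 and 138 CPM (-0.42 ± 0.05 SE). HSPA1A shares reads with its copy HSPA1B, and their summed counts had a log2 ratio of -0.37. The mitochondrial chaperones HSPA9 (0.19 ± 0.03 SE) and DNAJA3 (0.26 ± 0.05 SE) rose. Of 41 proteasome subunits and assembly factors, 12 fell and none rose (median -0.05), 6 fell with DESeq2 or on the log2(TPM + 1) scale, where the median was 0.01, and 1 rose without control replicate 2 or PrxII siRNA replicate 1. POMP, which assembles the catalytic core, fell from 275 and 275 to 224 and 226 CPM (-0.29 ± 0.03 SE).

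Genes of cell death were mixed, with 13.9% of the list higher and 8.33% lower, against 7.76% and 9.82% of all tested genes. Of 36 tested members of the BCL2 family and death receptor pathway, 5 rose and 3 fell, or 1 without PrxII siRNA replicate 1 (median 0.05). The BH3-only genes BMF (34.99 and 33.4 to 56.95 and 52.6 CPM, 0.68 ± 0.07 SE) and PMAIP1, which encodes NOXA (13.9 and 13.8 to 17.9 and 19.98 CPM, 0.45 ± 0.12 SE), the death receptor TNFRSF10B (0.29 ± 0.05 SE) and the survival gene MCL1 (0.25 ± 0.03 SE) rose. BIRC5, survivin, which is also a G2/M gene, fell from 122 and 109.8 to 91.3 and 93.2 CPM (-0.33 ± 0.06 SE), and the adaptor FADD (-0.23 ± 0.06 SE) and cytochrome c, CYCS (-0.18 ± 0.05 SE), fell as well.

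The remaining lists are given by their counts, to be read against 7.76% higher and 9.82% lower among all genes. Lysosome and autophagy genes had 7 of 40 higher and 5 lower, with GABARAPL1 (0.32 ± 0.09 SE) and MAP1LC3B (0.29 ± 0.05 SE), both coats of the autophagosome, higher and the proton pump subunit ATP6V0D1 (-0.38 ± 0.06 SE) lower, and without PrxII siRNA replicate 1 the rises numbered 4 and the falls 2. Of 37 splicing factors, 7 fell and 3 rose, with SRSF2 at -0.28 ± 0.04 SE. Of 15 histone genes, 4 fell and 2 rose, and of 9 metallothioneins and zinc transporters 2 fell. Among 22 tight junction genes 4 rose and 2 fell, among 15 mucins and their partners 1 rose and 3 fell, with MUC13 lower (-0.45 ± 0.04 SE), and among 22 integrins and laminins 1 rose and 4 fell. The lists of stem markers (1 of 15 higher, 3 lower), epithelial-mesenchymal transition (3 of 23 higher, 2 lower), YAP and TAZ targets (1 of 21 higher, 4 lower), BMP readouts (1 of 14 higher, 2 lower), the IGF axis (2 of 19 higher, 5 lower), the MYC network (3 of 17 higher, 2 lower) and the TRiC chaperonin (3 of 8 lower) had medians between -0.06 and 0.05. Some of these counts moved with 1 library left out. Without PrxII siRNA replicate 1, 1 zinc list member, 1 BMP readout, 1 gene of the epithelial-mesenchymal transition, 3 of the IGF axis and 1 of TRiC fell, no BMP readout rose, 2 mucin genes rose, and 2 tight junction genes rose and none fell. Without PrxII siRNA replicate 2, 1 splicing factor and 2 tight junction genes rose, and 1 zinc list member, 3 of the IGF axis and 1 of TRiC fell. Without control replicate 1, 3 YAP and TAZ targets, 2 mucin genes and no BMP readout rose, and 1 BMP readout and 1 TRiC gene fell. Without control replicate 2, 2 tight junction genes and no BMP readout rose and 1 gene of the epithelial-mesenchymal transition fell. On the log2(TPM + 1) scale no gene of TRiC, the integrins and laminins or the epithelial-mesenchymal transition fell. The desmosome gene DSP rose from 219.98 and 213 to 305 and 296 CPM (0.47 ± 0.04 SE), and ODC1, which makes polyamines, from 357 and 345 to 476 and 468 CPM (0.43 ± 0.03 SE). Of 13 genes of the siRNA machinery, 2 fell, or 1 without PrxII siRNA replicate 1, among them DICER1, from 53.5 and 53.6 to 43.3 and 41.3 CPM (-0.34 ± 0.06 SE).

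SW480 cells, another colorectal line with truncated APC, gave fewer calls after PrxII siRNA. Of 14112 genes tested there, 172 (1.22%) were higher and 294 (2.08%) lower, and the control duplicates differed more, at 11.2 per degree of freedom against 2.11 for the PrxII siRNA duplicates. The number of calls therefore says little on the size of the effects. In a fit of all 8 libraries the change differed between the lines for 166 of 14772 genes (1.12%). PRDX2 itself fell further in SW480 than in HT29, at -1.70 on the log2 scale (adjusted p of the difference = 0.0128). A difference between the lines therefore cannot be told apart from one of knockdown depth. AKAP12 (-0.02 in SW480, adjusted p of the difference = 2.89e-05), NKD1 (-0.30, 0.000165), TUBA1A (0.38, 0.000165) and LCN2 (0.00, 0.00043) did not pass the test within SW480, and their changes differed between the lines. The ligands AREG (-0.27 in SW480, adjusted p of the difference = 0.00707), HBEGF (-0.28, 0.00543) and EREG (-0.65, 0.00248) were below 0 there and differed as well. AXIN2 was at 0.06 (adjusted p of the difference = 0.00888) and S100A10 fell further in SW480 (-1.99, adjusted p of the difference = 0.00014).

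By list, SW480 had 5 of 35 ATF4 and CHOP targets higher and none lower (median 0.27), 21 of 79 ribosomal protein genes lower (median -0.32), 3 of 78 G2/M genes lower (median -0.23), 3 of 29 cholesterol genes lower (median -0.14) and 2 of 44 interferon-stimulated genes lower (median -0.09). The 53 replication and G1/S genes had 1 higher and a median of -0.12, on the other side of 0 from the 0.16 in HT29, a difference of the lists that was not tested. NRF2 targets, with a median of -0.05 in HT29, had 4 of 26 members higher, none lower and a median of 0.25 in SW480, and OSGIN1 was above 0 there (1.09, adjusted p = 0.0212), a difference that was not tested for the list. Members with an effect on the same side in both lines included ASNS (0.61 in SW480, adjusted p = 0.0352), HMGCS1 (-0.98, 0.0138), ANXA1 (-1.57, 0.000768), TIMP2 (-0.86, 0.00436), CCND1 (-0.59, 0.00881), CDKN1A (0.64, 0.0249) and JUN (0.61, 0.03).

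**Figure D3:**
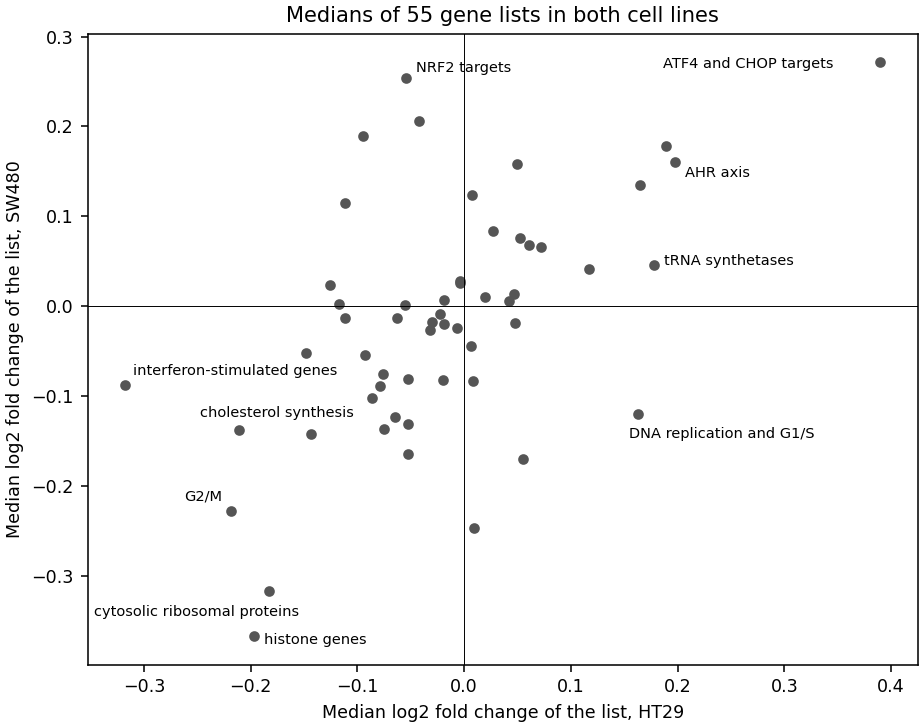
Median log2 fold change (PrxII siRNA minus control) of 55 gene lists with at least 10 tested members in both lines, HT29 on the x axis and SW480 on the y axis, 1 point per list. ATF4 and CHOP targets lie highest in both lines (0.39 and 0.27), and DNA replication and G1/S genes lie at 0.16 in HT29 and -0.12 in SW480. The lists were chosen with earlier results of these data known.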

How the data were processed

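Messenger RNA of HT29 and SW480 cells was sequenced 36 h after transfection with control or PrxII siRNA, 2 libraries a group. Per the methods stated for HT29, the authors aligned reads with MapSplice to hg19, quantified genes with RSEM and deposited expected counts, TPM and FPKM per gene symbol. FastQC and DESeq2 are also named in the submitters' processing notes. FPKM was not used. About 3% of symbols in each library held non-whole expected counts, which mark reads shared between genes.

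Here expected counts were rounded, genes that reached 10 counts in 2 or more HT29 libraries were kept, and siPrdx2 was compared with siCon by edgeR 4.0.16 in R 4.3.3 (TMM, quasi-likelihood test, Benjamini-Hochberg adjustment, threshold 0.05). Expected counts were scaled to CPM on TMM-scaled totals. Summed expected counts were 9433463 to 10164137 per HT29 library, well below the number of reads that the study states for its HT29 samples. SW480 and the difference between lines were fitted likewise. Deposited TPM values were tested as log2(TPM + 1) with limma 3.58.1, and DESeq2 1.42.0 was an alternative.

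The 63 gene lists were chosen with earlier results of these data known. Named genes are PRDX2, the peroxiredoxins, the 15 largest rises and falls at 5 CPM or more with groups that do not overlap, up to 4 called members per list and direction, the 10 called genes of highest TPM and genes that the study names. Coordinates of genes are GRCh37 and promoters are RefSeq, GRCh38.p14. Intervals cover counting error only. The shared replicate numbers are not stated to mark a common day or batch. Some genes are not reported here.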

Additional observations from a re-analysis of the deposited data

Results flagged for a closer look

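The following genes had a change in HT29 cells that differed from the change in SW480 cells, by edgeR's quasi-likelihood test of the difference over 14772 genes (Benjamini-Hochberg adjustment). Values are the log2 fold change in HT29 minus that in SW480. PRDX2 had a difference of 0.84 (adjusted p = 0.0128), since its RNA fell by 0.87 in HT29 and by 1.70 in SW480. Cell line and knockdown depth cannot be told apart here. The difference was positive for NKD1 (2.26), TUBA1A (1.72), AKAP12 (1.70), FNTB (1.55), AREG (1.27) and HBEGF (1.27). It was negative for WNT11 (-1.96), LCN2 (-1.35), OAS2 (-1.28), KIF20A (-1.05) and GDF15 (-0.85), and GDF15 rose in both lines. TIMM23B gave -14.40, a value of no meaning in size, because the gene did not pass the filter in SW480 and shares its reads with TIMM23. With groups of 2, no test for a single deviating library was made.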

How the results depend on the processing

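The number of genes that changed was 2279. It was 871 with DESeq2 (315 higher, 556 lower), 211 in a test against a fold of 1.2 (82 higher, 129 lower) and 197 when all 8 libraries shared one spread (90 higher, 107 lower). On the log2 scale of TPM, 548 genes fell with a pseudocount of 1 and 545 with 0.1. Leaving out 1 library at a time gave 1527 to 2043 changed genes, 651 to 870 higher and 876 to 1173 lower, with the lowest values without PrxII siRNA replicate 1. In such fits the lone library is assumed to vary like the others. No gene called in both the reported fit and one of these settings changed sign. Of 310 named genes that passed, 195 did so with DESeq2 (90 did not and 25 had no adjusted p), 89 in the fit of all 8 libraries and 240 to 275 with 1 library left out. The number of genes whose change differed between HT29 and SW480 was 166, 267 with no filter on counts and 311 with DESeq2. The cause of these shifts was not tested.

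In a fit with a replicate block, 2889 genes passed (1307 higher, 1582 lower), among them 100% of the 2279. Same-numbered libraries had deviations that correlated at 0.127 over 10973 genes, but with 2 numbers and no label that ties them, the pairing is not established. Counting error limits genes near 10 counts most, and 2 libraries a group limit every p-value.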
